A study of Homo sapiens with 4 samples.

Results

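The heavy polysome pool of a sucrose gradient was set against the light polysome pool to ask which mRNAs other than TOP mRNAs carried many ribosomes and which carried few. TOP mRNAs, which start with a pyrimidine run next to the cap and code for ribosomal proteins and some translation factors, were left out of the descriptions together with the ribosomal protein paralogues. Genes entered the comparison with 30 or more counts summed over the 4 libraries, which 7527 of the 19948 genes in the table had. Of these, 7420 were not TOP genes or paralogues. HEK293T cells, an established human embryonic kidney line that carries the SV40 large T antigen, were all treated with cycloheximide at 100 ug/mL for 10 min before lysis, so the pools share that treatment. Capped and polyadenylated RNA from the free, monosome, light polysome and heavy polysome pools was sequenced directly on nanopores. Each pool had 1 library, so no difference below has a replicate check and none has a p-value.

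Cycloheximide stops elongating ribosomes where they stand, and an mRNA then sediments according to how many ribosomes it holds. That number depends on the length of the reading frame, on how often ribosomes start, and on how fast they move along. Short reading frames have room for few ribosomes, and reading frames upstream of the main one can take up ribosomes before they reach it.

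The value given for each gene is the log2 ratio of its share of counts in the heavy library to its share in the light library, relative to the median tested gene. The median gene itself had a share 1.51-fold higher in the heavy library, a log2 ratio of 0.59. The values are shares of a library, and the RNA mass of each pool was not given in the sources used here. Ranges in parentheses are 95% exact (Clopper-Pearson) counting intervals, which cover counting error only. A gene was called toward the heavy or the light polysomes when it lay at least 2-fold from the median gene and its interval excluded it. Of the tested genes that were not TOP genes, 1947 were called toward the heavy polysomes (26.2%) and 2075 toward the light polysomes (28.0%). Over all tested genes the shares called were 26.0% and 28.3%, and 49.9% lay above and 50.0% below the median gene. With shares left on the library totals, 68.7% of all calls were toward the heavy polysomes, against 47.9% relative to the median gene, and 61.8% when the totals left out TOP genes. Ratios spread widely: 10% of the genes lay below -2.24 and 10% above 1.95. At the entry threshold the 106 genes with 30 counts had a median of 0.15 and the 83 genes with 29 counts, just outside, a median of 0.08.

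Total counts were 355509 in the free, 1329334 in the monosome, 1499401 in the light polysome and 1564531 in the heavy polysome library. TOP genes and paralogues took 33.5% of the light and 22.9% of the heavy library. All 11 genes used as HEK293T markers, such as VIM, NEFL and LIN28B, had counts, while 4 of 17 markers of blood, liver, muscle, fibroblast and endothelial cells had any and none of these more than 3 in all. Summed CPM (a gene's counts over its library's total, times 1000000) of the HEK293T markers ran from 61.9 in the free to 842 in the heavy library. VIM alone gave 664 of their 1317 heavy counts. KRT8 (22 light and 14 heavy counts) and PAX2 (2 and 1) had fewer in the heavy than in the light library. INA and PAX2 had only 6 counts each in all. Counts of a gene are listed below in the order free, monosome, light polysome and heavy polysome.

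**Figure D1:**
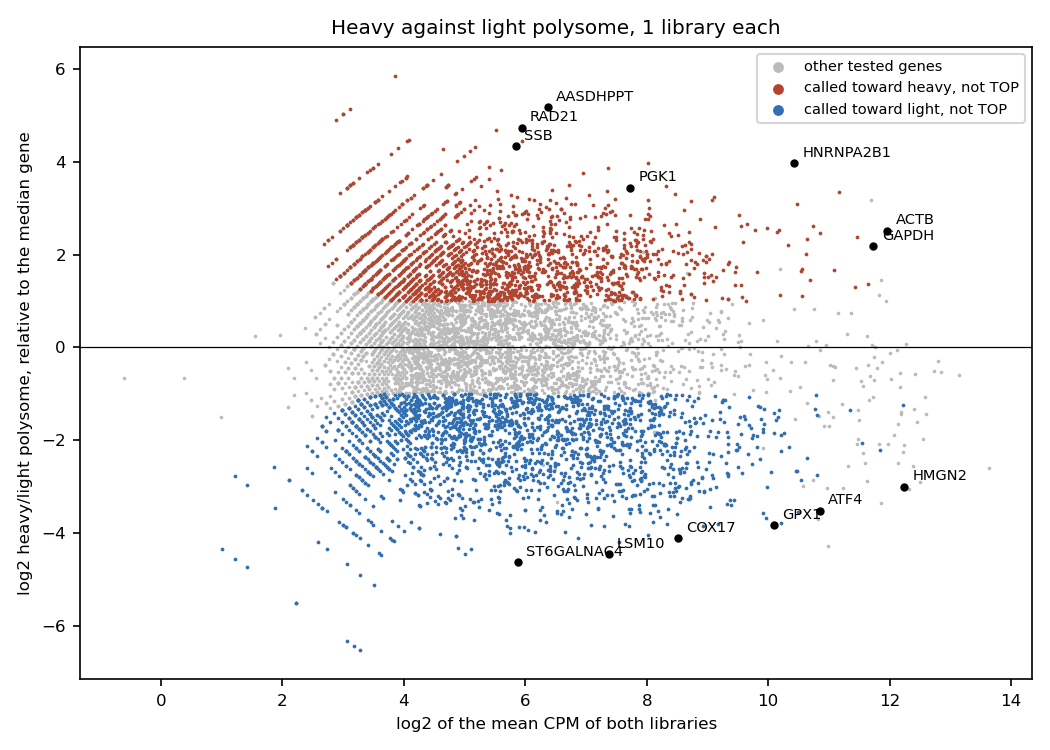
Each point is 1 of the tested genes with a count in either library, with the log2 of its mean CPM in the heavy and light libraries on the x axis and its log2 heavy/light ratio relative to the median gene on the y axis. Red and blue points were called toward the heavy or light polysomes and are not TOP genes; called genes at both ends run from low levels up to ACTB (heavy) and HMGN2 (light).

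The shortest reading frames lay mostly toward the light polysomes. The 4 sequences that follow show what such frames look like: they are the shortest coding sequences (principal transcript) among light-called genes with at least 500 counts in both libraries together. They are read from GENCODE release 29 transcripts on GRCh38, 5′ to 3′, with the start and stop codons in capitals. OST4, a subunit of oligosaccharyltransferase, lies at chr2:27070472-27071773 on the minus strand, and TMSB10, an actin monomer-binding protein, at chr2:84905625-84906675 on the plus strand. STMP1, a mitochondrial micropeptide, lies at chr7:135662496-135693418 on the plus strand, and ATP5F1E, the epsilon subunit of ATP synthase, at chr20:59025467-59032382 on the minus strand.
OST4: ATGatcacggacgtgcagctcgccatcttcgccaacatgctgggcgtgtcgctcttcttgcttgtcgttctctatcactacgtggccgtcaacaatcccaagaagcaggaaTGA
TMSB10: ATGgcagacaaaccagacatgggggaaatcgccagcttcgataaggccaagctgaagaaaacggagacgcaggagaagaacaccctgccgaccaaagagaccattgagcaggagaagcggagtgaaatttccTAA
STMP1: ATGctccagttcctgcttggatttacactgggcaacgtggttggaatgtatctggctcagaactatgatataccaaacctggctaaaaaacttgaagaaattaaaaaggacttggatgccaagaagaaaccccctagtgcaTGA
ATP5F1E: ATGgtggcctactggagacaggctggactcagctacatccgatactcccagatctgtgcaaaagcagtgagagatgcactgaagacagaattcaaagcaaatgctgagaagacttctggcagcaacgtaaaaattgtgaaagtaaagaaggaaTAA
These frames are 114, 135, 144 and 156 nucleotides long, stop codon included, and code for 37, 44, 47 and 51 residues. OST4 had 38, 1025, 964 and 125 counts and a relative log2 ratio of -3.59 (-3.88 to -3.33). TMSB10 had 151, 1951, 2576 and 339 counts and lay at -3.58 (-3.75 to -3.41). ATP5F1E, with 62, 1050, 1182 and 218 counts, lay at -3.09 (-3.31 to -2.88). STMP1, with 63, 407, 512 and 135 counts, lay at -2.57 (-2.86 to -2.30). In each of these the monosome and light polysome libraries held most of the counts and the heavy library far fewer.

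Across all tested genes with an annotated reading frame the ratio rose with coding length up to a middle length and then fell back. In the shortest of 10 equal groups of genes, with frames of 75 to 498 nucleotides, the median was -1.94, 80.0% of genes were called toward the light polysomes and 0.537% toward the heavy ones. The medians of the next 4 groups were -0.81, -0.22, 0.31 and 0.51, and the next, with frames of 1221 to 1428 nucleotides, had the highest at 0.71. The longest group, with frames of 2760 to 16941 nucleotides, was back at 0.01. Spearman's rho between ratio and coding length over 7447 genes, all from the same pair of libraries, was 0.319. Among the 3635 non-TOP genes with frames of 900 to 2100 nucleotides it was 0.03.

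**Figure D2:**
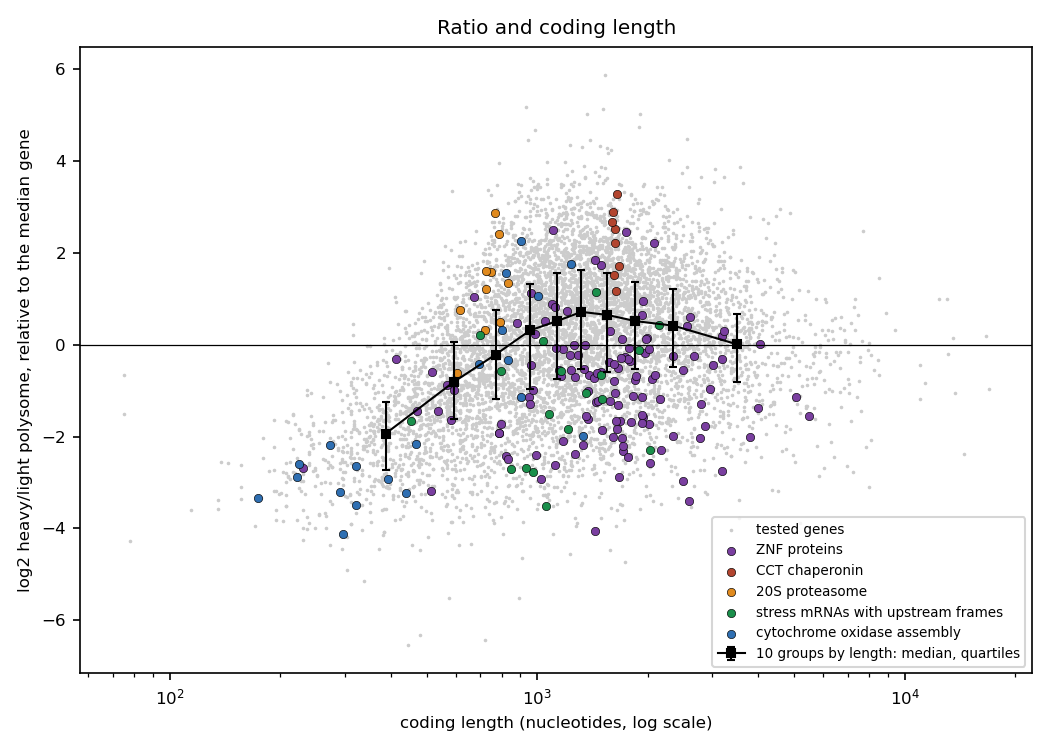
Grey points are tested genes, with coding length in nucleotides on a log axis and the log2 heavy/light ratio relative to the median gene on the y axis; black squares and bars are the median and quartiles of 10 groups of genes by length. The CCT chaperonin and 20S proteasome genes lie above genes of their length, the ZNF genes and the stress mRNAs with upstream frames mostly below, and the cytochrome oxidase assembly genes with short frames lie along the falling left arm.

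Gene lists by function fell at both ends. Of 85 lists, 50 had a median above the median gene and 34 below it. The heavy end held the machines that fold and degrade proteins, the hnRNP proteins and central carbon metabolism. The light end held the smallest proteins of the mitochondrion and the splicing machinery, ubiquitin-like proteins, selenoproteins, polyamine regulators and stress factors with upstream reading frames.

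**Figure D3:**
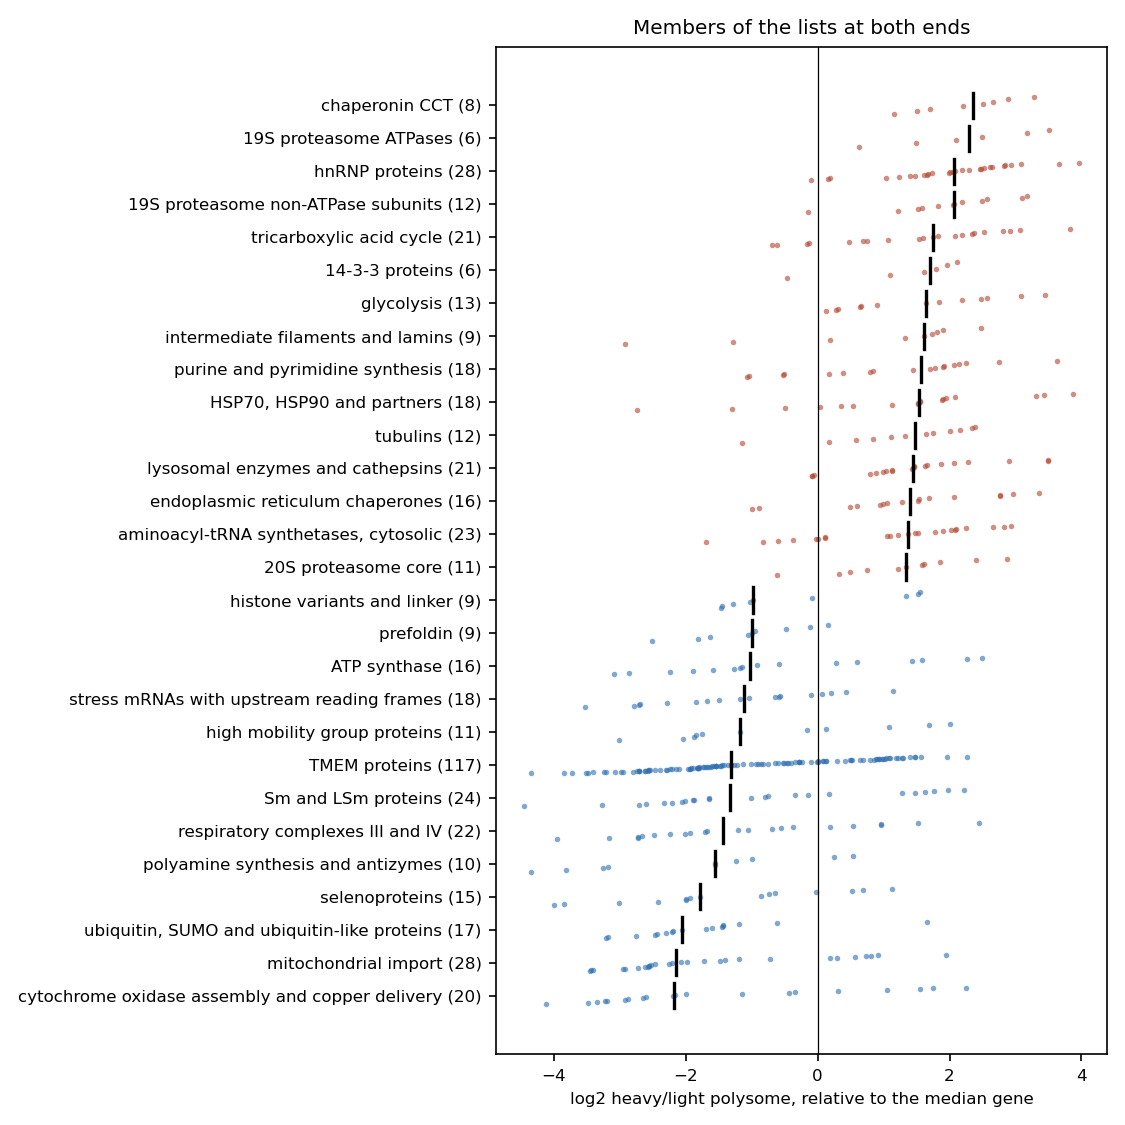
Each point is a tested member of a list (number of members in parentheses), placed by its log2 heavy/light ratio relative to the median gene; black bars mark list medians, and lists are ordered by them. The 15 lists drawn in red have medians from 1.34 to 2.36 and the 13 in blue from -2.18 to -0.98, and single members such as UBB, at 1.66 among the ubiquitin-like proteins, lie far from their list's median.

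The cytosolic chaperonin CCT, a ring of 8 related subunits that folds actin and tubulin, had the highest median of all lists, 2.36, with 8 of 8 subunits called toward the heavy polysomes. CCT8 had 3, 33, 25 and 387 counts and lay at 3.27 (2.72 to 3.95). CCT7 followed with 11, 60, 149 and 1082 counts at 2.20 (1.96 to 2.47). CCT3, with 12, 158, 255 and 899 counts, lay lowest at 1.16 (0.96 to 1.37). The heavy library held more counts of each named subunit than the other 3 libraries together, while the subunits, whose frames are nearly equal in length, still differed from each other beyond counting error. Known clients of CCT lay mostly at the same end: 8 of 12 tubulins were called toward the heavy polysomes and 1 toward the light ones (median 1.48). Actin ACTG1 had 71, 531, 961 and 7875 counts at 2.38 (2.29 to 2.48). The tubulins TUBA1B, TUBA1C and TUBB have near-identical copies and are less certain. Prefoldin, the complex that passes unfolded actin to CCT, had 1 of 9 tested members above the median gene, 4 called toward the light polysomes and a median of -0.999. Its frames are short (median 465 nucleotides), and against the 200 genes nearest in coding length, called genes of like length below, its median was 0.38 with 6 of 9 above.

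Among the other cytosolic chaperones, DNAJA1, a J-domain partner of HSP70, had 9, 45, 31 and 779 counts and lay at 3.98 (3.48 to 4.57). HSP90AA1, the inducible HSP90, had 5, 48, 21 and 495 counts and lay at 3.87 (3.28 to 4.61). HSPA8, the constitutive HSP70, lay near the middle at 0.53 (0.38 to 0.69) with 19, 210, 489 and 1114 counts. The list of HSP70, HSP90 and their partners, which also holds the mitochondrial HSPD1, HSPA9, HSPE1 and TRAP1, had 12 of 18 members called heavy, 2 called light and a median of 1.54. Of 16 chaperones of the endoplasmic reticulum, 10 were called heavy and none light; the calcium-binding chaperone CALR, with 24, 92, 91 and 1125 counts, lay at 2.97 (2.67 to 3.30).

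The proteasome, which degrades ubiquitin-tagged proteins, lay toward the heavy polysomes, with a higher median in its regulatory particle than in its core. Of the 6 ATPases that unfold substrates, 5 were called heavy (median 2.29), and of 12 non-ATPase subunits of the regulatory particle 11 were (median 2.06). PSMC2, an ATPase, had 0, 18, 17 and 311 counts and lay at 3.50 (2.84 to 4.34). PSMC5, in the same ring, lay at 0.63 (0.45 to 0.82) with 3, 119, 342 and 835 counts. PSMD14, the deubiquitinase of the lid, had 1, 13, 24 and 328 counts at 3.09 (2.52 to 3.78). In the 20S core, whose frames are shorter (median 736.5 nucleotides), 7 of 11 tested subunits were called heavy and none light, with a median of 1.34. Set against the 200 genes nearest in coding length, the core's median was 1.55, that of the ATPases 1.54 and that of the non-ATPase subunits 1.57. Among ubiquitin, SUMO and ubiquitin-like genes 15 of 17 were called light, with a median of -2.05; against genes of like length the median was -0.22. UBL5, a ubiquitin-like splicing factor, had 47, 534, 1074 and 305 counts and lay at -2.47 (-2.66 to -2.28). UBB, which codes for several ubiquitin units in tandem and so has a longer frame, was the only member above the median gene, with 414, 516, 1134 and 5619 counts at 1.66 (1.56 to 1.75); it has a near-identical pseudogene.

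RNA-binding proteins of the hnRNP class, which coat nascent transcripts and guide splicing, were called heavy in 25 of 28 tested members, with none called light and a median of 2.07. HNRNPA2B1 had 30, 165, 168 and 4139 counts and lay at 3.97 (3.75 to 4.20). HNRNPC followed with 23, 139, 360 and 3248 counts at 2.52 (2.36 to 2.68), and HNRNPAB had 19, 134, 780 and 3853 at 1.65 (1.54 to 1.77). RALY, a member of the same class, was the lowest at -0.11 (-0.30 to 0.09), with 10, 51, 356 and 520 counts. The SR proteins, the other large class of splicing regulators, lay less far over: 8 of 16 were called heavy, none light, and the median was 0.95, from SRSF9 at -0.20 to SRSF4 at 2.18 among the well-counted members. DEAD-box and DEAH-box RNA helicases had 18 of 36 called heavy and 1 light (median 0.96), with DDX3X at 2.56 (1.83 to 3.48) on 15 light and 143 heavy counts. SSB, the La protein that binds the ends of RNA polymerase III transcripts, had 1, 10, 5 and 175 counts and lay at 4.34 (3.23 to 6.12). The small Sm and LSm proteins, which form rings on snRNAs and decaying mRNAs, had 13 of 24 called light and a median of -1.33, but against genes of like length their median was 0.41 with 17 of 24 above. SNRPD2, an Sm ring protein, had 464, 1585, 2518 and 1070 counts and lay at -1.89 (-1.99 to -1.78).

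Enzymes of central carbon metabolism formed the next block. In the tricarboxylic acid cycle list, which includes the dehydrogenase complexes that feed it, 14 of 21 genes were called heavy and none light, with a median of 1.75. DLD, the dehydrogenase shared by several of these complexes, had 0, 7, 6 and 145 counts and lay at 3.83 (2.79 to 5.41). In glycolysis 7 of 13 were called heavy and the lowest of the most counted was TPI1, triose phosphate isomerase, with 62, 357, 2681 and 5120 counts at 0.28 (0.21 to 0.35). Purine and pyrimidine synthesis had 10 of 18 called heavy and 2 light (median 1.57), and amino acid and one-carbon synthesis 14 of 22 and 2 (median 1.24). Lysosomal enzymes, made in the endoplasmic reticulum for the degrading compartment, had 15 of 21 called heavy and none light, with a median of 1.44; the protease CTSL had 2, 6, 15 and 181 counts at 2.90 (2.18 to 3.81).

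The 14-3-3 proteins, adaptors that bind phosphorylated partners, had the highest list median against genes of like coding length, 1.93. Their own median was 1.71 with 5 of 6 called heavy at a median frame of 741 nucleotides. YWHAB had 2, 19, 91 and 619 counts and lay at 2.11 (1.79 to 2.45), and YWHAQ had 7, 61, 311 and 1704 counts at 1.80 (1.63 to 1.98). YWHAH was the exception at -0.46 (-0.74 to -0.19), with 6, 28, 207 and 236 counts. YWHAZ, at 1.62, has several near-identical pseudogenes and is less certain.

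Some of the farthest single genes belonged to no such block. AASDHPPT, the enzyme that attaches phosphopantetheine to carrier proteins, had 0, 12, 4 and 255 counts and the highest ratio among the well-counted genes (100 or more in both libraries together), 5.18 (3.97 to 7.23). Its exons overlap KBTBD3 on the opposite strand, a gene with fewer than 30 counts. VPS26A, a retromer subunit that sorts endosomal cargo, had 3, 21, 3 and 140 counts at 4.67 (3.32 to 7.19). RRAGA, a Rag GTPase that brings mTORC1 to the lysosome, had 5, 5, 5 and 188 counts at 4.45 (3.33 to 6.22). SLC39A14, a zinc and manganese importer, had 0, 5, 3 and 110 counts at 4.33 (2.96 to 6.84), and METAP2, which removes initiator methionines, had 1, 29, 17 and 369 at 3.75 (3.09 to 4.58). For all of these the light library held fewer than 20 counts, so the intervals are wide; the lowest lower end is 2.96.

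**Figure D4:**
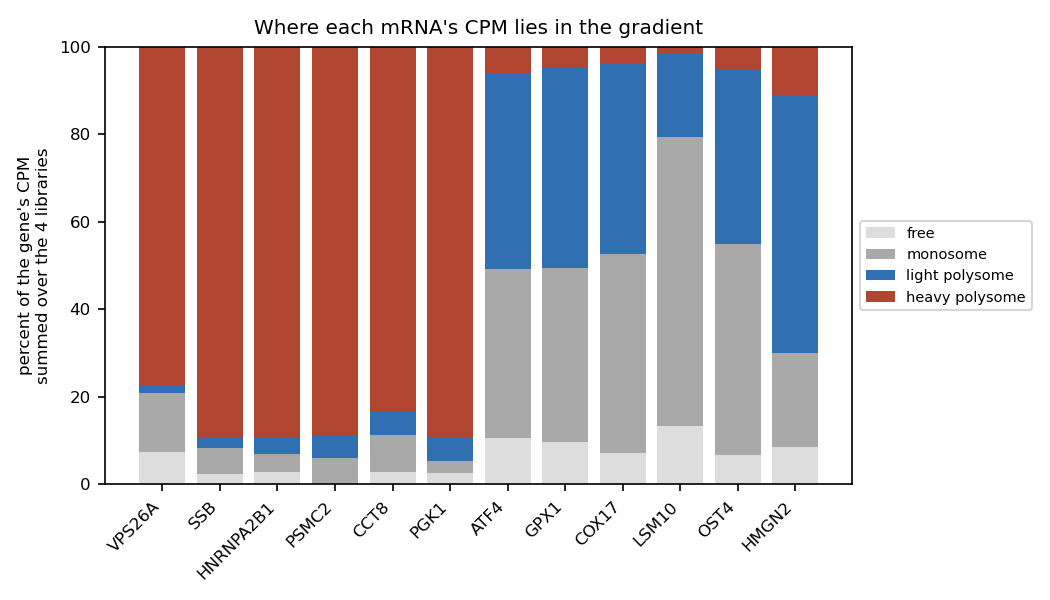
Stacked bars give, for 12 genes, the percent of the gene's CPM summed over the 4 libraries that came from each library. From 77.3% (VPS26A) to 89.2% (PGK1) of the CPM of the 6 genes on the left lay in the heavy library. For the 6 on the right it was between 1.31% (LSM10) and 11.0% (HMGN2). The monosome library held the largest part for LSM10 (66.0%), OST4 (48.2%) and COX17 (45.6%).

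At the light end, mitochondrial lists stood out for the small proteins in them. Cytochrome oxidase assembly and copper delivery had 13 of 20 genes called light, 3 called heavy and a median of -2.18. COX17, which hands copper to the assembling enzyme, had 39, 940, 1011 and 91 counts at -4.12 (-4.45 to -3.82). COA3, an assembly factor of the inner membrane, had 24, 565, 617 and 86 counts at -3.49 (-3.84 to -3.17). SCO1, the next copper chaperone in the same pathway but with a frame of 906 nucleotides, had 1, 14, 21 and 161 counts at 2.26 (1.63 to 3.02). Mitochondrial import had 20 of 28 called light (median -2.14); TIMM8B, a small chaperone of the intermembrane space, lay at -2.92 (-3.19 to -2.66) on 691 light and 143 heavy counts, and the receptor TOMM70, with a frame of 1827 nucleotides, at 1.95 (1.31 to 2.72) on 21 and 130. Against genes of like length the medians of the assembly and import lists were -0.40 and -0.28, and that of respiratory complexes III and IV, at -1.44 before, was 0.74.

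Members of 1 complex could lie at opposite ends. The pairs that follow were picked as high, low or highly counted members by this same ratio, so their distance is a description only. In respiratory complexes III and IV the core subunit UQCRC1 had 8, 44, 74 and 639 counts at 2.45 (2.11 to 2.83), and the hinge protein UQCRH had 107, 1672, 3392 and 841 at -2.66 (-2.77 to -2.55). In ATP synthase the catalytic beta subunit ATP5F1B, with 18, 186, 132 and 1167 counts, lay at 2.49 (2.23 to 2.76), against -3.09 for the epsilon subunit ATP5F1E shown above. In complex I NDUFA10 lay at 2.59 (2.00 to 3.31) and NDUFB1 at -2.97 (-3.27 to -2.68).

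Outside the mitochondrion the pairs were picked in the same way. In the anaphase-promoting complex, which drives exit from mitosis, the scaffold subunit ANAPC5 had 0, 18, 115 and 586 counts at 1.69 (1.41 to 2.00), and the small subunit ANAPC15 had 29, 332, 322 and 29 counts at -4.10 (-4.73 to -3.57); ANAPC15 overlaps LRTOMT on the opposite strand, which had 13 light and 2 heavy counts. In oligosaccharyltransferase RPN2 lay at 2.83 (2.24 to 3.54), on 23 light and 262 heavy counts, against -3.59 for OST4. Among mitotic genes the cyclin CCNB1 had 3, 26, 41 and 498 counts at 2.93 (2.49 to 3.45), and CKS2, a small partner of the cyclin-dependent kinases, had 51, 288, 787 and 317 at -1.96 (-2.16 to -1.77). Around mTORC1, RRAGA at 4.45 stood against LAMTOR4, a Ragulator subunit that anchors it, at -2.73 (-2.97 to -2.50) on 794 light and 188 heavy counts. Of 42 lists with at least 3 members on either side of 600 nucleotides of coding length, a limit set after the data were seen, 40 had a higher median among the longer members. The lists share some genes, and over all non-TOP genes the medians were -1.59 for 1096 short and 0.27 for 6244 longer ones. The exceptions were the COPI and COPII coats (0.67 short, 0.29 long) and the RAB, ARF and ARL GTPases (-0.11 short, -0.25 long).

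The symbol families with the lowest medians, SMIM and HIST, are made of small proteins. Families with longer frames lay toward the light end too, such as GPR with a median of -1.73. All 16 tested SMIM genes, named as small integral membrane proteins, were called light (median -2.87); SMIM11A and SMIM11B are near-identical copies, with counts that differ only in the monosome library (260 and 259). Of 18 HIST genes, the replication-dependent histones whose mRNAs normally end in a stem-loop without a poly(A) tail, 17 were called light and none heavy, with a median of -2.86. Against genes of like length the family medians were -0.65 for SMIM (5 of 16 above) and -1.05 for HIST (4 of 18 above). The linker histone HIST1H1C, the lowest well-counted HIST gene, had 25, 496, 288 and 40 counts at -3.48 (-4.02 to -3.02), or -3.04 against genes of like length. These polyadenylated counts were few, 1283 in the light and 260 in the heavy library for the whole family. The variant histones, made from polyadenylated mRNAs and not only in S phase, were nearer the middle, with a median of -0.98 and 9 of 9 above genes of their length. H3F3B had 31, 252, 1736 and 1119 counts at -1.29 (-1.40 to -1.18). HMGN2, a nucleosome-binding protein and the most counted of these chromatin genes, had 413, 3966, 12195 and 2386 counts at -3.01 (-3.07 to -2.94), while HMGB1, a longer high mobility group protein with pseudogene copies, lay at 1.69 (1.58 to 1.80) on 769 and 3892.

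LSM10, which belongs to the U7 particle that trims histone mRNAs, had 76, 1407, 466 and 33 counts at -4.45 (-5.03 to -3.96). EMC6, a subunit of the membrane protein insertase, had 137, 1661, 718 and 68 counts at -4.04 (-4.43 to -3.69). POLR2K, a small subunit shared by the RNA polymerases, had 51, 478, 367 and 40 counts at -3.83 (-4.36 to -3.38). These 3 mRNAs were counted most often in the monosome library, 1 step lighter than the pool compared here. They were not alone in this, as OST4 and HIST1H1C above also had more monosome than light counts. Against genes of like coding length LSM10 lay at -2.52.

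Stress mRNAs with upstream reading frames, which code for proteins made when initiation is limited, had 10 of 18 called light and 1 heavy, a median of -1.11, and a median of -1.47 against genes of like coding length. ATF4, the transcription factor of the integrated stress response, had 272, 3745, 4895 and 670 counts at -3.52 (-3.64 to -3.40), or -4.01 against genes of like length; its annotated 5′ UTR holds 7 ATG triplets. SLC35A4, a nucleotide sugar transporter, had 1, 85, 614 and 140 counts at -2.78 (-3.06 to -2.52) with 20 such triplets. UCP2, a mitochondrial carrier, had 4, 214, 948 and 231 counts at -2.69 (-2.90 to -2.48) with 5. SESN2, a stress-induced inhibitor of mTORC1 with 1 triplet, was the member called heavy, at 1.14 (0.64 to 1.69) on 41 light and 143 heavy counts.

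Polyamine synthesis and its antizyme regulators, whose translation responds to polyamines, had 7 of 10 called light and none heavy (median -1.56, or -2.09 against genes of like length). ODC1, the first enzyme of the pathway, had 37, 1195, 1865 and 999 counts at -1.55 (-1.66 to -1.44). OAZ1, the antizyme made by frameshifting that sends ODC1 to the proteasome, had 32, 396, 1091 and 179 counts at -3.26 (-3.50 to -3.03). AMD1, the other regulated enzyme, lay at 0.54 (0.20 to 0.90) on 98 and 225. Selenoproteins, which read a UGA codon as selenocysteine, had 8 of 15 called light and 1 heavy, with a median of -1.79, or -0.92 against genes of like length. Their median frame is 681 nucleotides, and the median was -1.86 for the 6 with frames up to 600 nucleotides and -0.34 for the 8 longer ones. GPX1, a glutathione peroxidase, had 149, 2273, 2963 and 325 counts at -3.84 (-4.01 to -3.67), and GPX4, which reduces lipid peroxides, had 72, 1399, 2551 and 496 at -3.01 (-3.16 to -2.88). TXNRD1, a thioredoxin reductase with its UGA codon near the end of the frame, was the 1 called heavy, at 1.13 (0.78 to 1.51) on 83 and 287.

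Lists and families of transcription factors and membrane proteins differed in how they lay against their length. Of 126 ZNF genes 58 were called light and 7 heavy; the median was -0.89 with a median frame of 1618.5 nucleotides, and -1.24 against genes of like length. Homeobox and SOX factors had 18 of 37 called light and 1 called heavy (median -0.76, or -0.99 against like length). E2F1, the S-phase transcription factor, had 1, 167, 387 and 54 counts at -3.48 (-3.93 to -3.08) or -4.41 against like length. Of 117 TMEM genes 62 were called light and 14 heavy (median -1.32); against like length their median was -0.43 with 40 above, and the 80 with frames over 600 nucleotides had a median of -0.37. The immediate-early and ID genes, many of them transcription factors, lay at -0.09 against like length. On the same measure the CD family, grouped by symbol alone, lay at 1.34 (13 of 16 above) and the vacuolar ATPase at 0.63 (13 of 16 above). The GPR family, mostly orphan receptors, had 7 of 12 called light at a median frame of 1368 nucleotides, with a median of -2.34 against like length. ST6GALNAC4, a sialyltransferase, had 3, 80, 166 and 10 counts at -4.64 (-5.79 to -3.79), or -4.89 against like length. NSMF, a synapse-to-nucleus messenger, had 3, 127, 630 and 84 counts and lay at -4.32 against like length. PSKH1, a serine kinase, had 2, 31, 180 and 18 counts and lay at -4.54 against like length. The heavy library held fewer counts of each of these than the light one.

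Within the lengths where the ratio no longer followed length, several features of the annotated mRNA went with it, among them GC content, upstream ATG triplets and exon number. The 6 stretches that follow show GC at the third codon position. They are bases 301 to 420 of the coding sequence (40 codons) of the 3 highest and 3 lowest non-TOP genes with principal frames of 900 to 2100 nucleotides and 200 or more counts in both libraries, read from GENCODE release 29 transcripts on GRCh38. Capitals mark G or C at the third base of a codon. The genes lie at chr11:106075501-106098710 (AASDHPPT, plus strand), chr9:33025211-33039907 (DNAJA1, plus), chr7:26173057-26201529 (HNRNPA2B1, minus), chr5:176346061-176361968 (KIAA1191, minus), chr12:118032694-118062430 (WSB2, minus) and chr7:151076593-151080866 (FASTK, minus).
AASDHPPT: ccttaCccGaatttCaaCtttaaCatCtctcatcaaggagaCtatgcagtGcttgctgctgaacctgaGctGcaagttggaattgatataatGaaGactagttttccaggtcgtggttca
DNAJA1: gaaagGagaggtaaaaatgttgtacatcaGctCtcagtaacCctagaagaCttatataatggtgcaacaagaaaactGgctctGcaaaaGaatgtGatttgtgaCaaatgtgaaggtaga
HNRNPA2B1: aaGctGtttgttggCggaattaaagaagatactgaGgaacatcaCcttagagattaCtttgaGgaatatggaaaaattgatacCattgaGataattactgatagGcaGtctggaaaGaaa
KIAA1191: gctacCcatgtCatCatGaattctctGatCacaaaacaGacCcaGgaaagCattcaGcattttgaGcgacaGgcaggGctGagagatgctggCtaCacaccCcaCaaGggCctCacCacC
WSB2: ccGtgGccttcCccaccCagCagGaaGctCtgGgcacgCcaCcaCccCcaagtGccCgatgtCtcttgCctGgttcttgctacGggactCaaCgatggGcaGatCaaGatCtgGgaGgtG
FASTK: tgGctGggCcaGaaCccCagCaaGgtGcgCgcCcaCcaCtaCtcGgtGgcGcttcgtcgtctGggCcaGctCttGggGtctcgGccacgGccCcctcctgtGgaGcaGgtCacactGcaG
In the stretches of AASDHPPT, DNAJA1 and HNRNPA2B1, at the heavy end, 12, 10 and 12 of 40 codons end in G or C, and over the whole frames 39.4%, 38.7% and 30.1% do. In those of KIAA1191, a gene of little known function, WSB2, a substrate receptor of a ubiquitin ligase, and FASTK, a mitochondrial RNA-binding protein, 24, 29 and 32 do, and 58.2%, 63.2% and 72.2% over the whole frames. The median over all tested non-TOP genes, by their longest frames, was 60%, above the share of KIAA1191 and close to that of WSB2. KIAA1191 had 4, 278, 427 and 46 counts at -3.85 (-4.34 to -3.43), WSB2 had 19, 278, 220 and 25 at -3.76 (-4.45 to -3.19), and FASTK had 6, 176, 343 and 44 at -3.60 (-4.10 to -3.16).

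Over the 3635 non-TOP genes of 900 to 2100 nucleotides, Spearman's rho of the ratio with GC over the whole frame was -0.331, with third-position GC -0.312, with the number of upstream ATG triplets -0.293 and with the number of exons 0.200. In the 727 of these genes with the lowest third-position GC (at most 42.1%) the median ratio was 1.30 and 56.8% were called heavy. In the 727 with the highest (76.1% or more) it was -0.08 and 21.5% were called heavy. The 1805 genes without an upstream ATG had a median of 0.94, with 47.1% called heavy and 10.5% light. The 449 genes with 4 or more had a median of -0.41, with 20.7% called heavy and 33.6% light, and their median third-position GC (60.1%) was close to that of the genes without (60.3%). These genes share both libraries and an annotation that may not match the 5′ ends used in these cells.

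**Figure D5:**
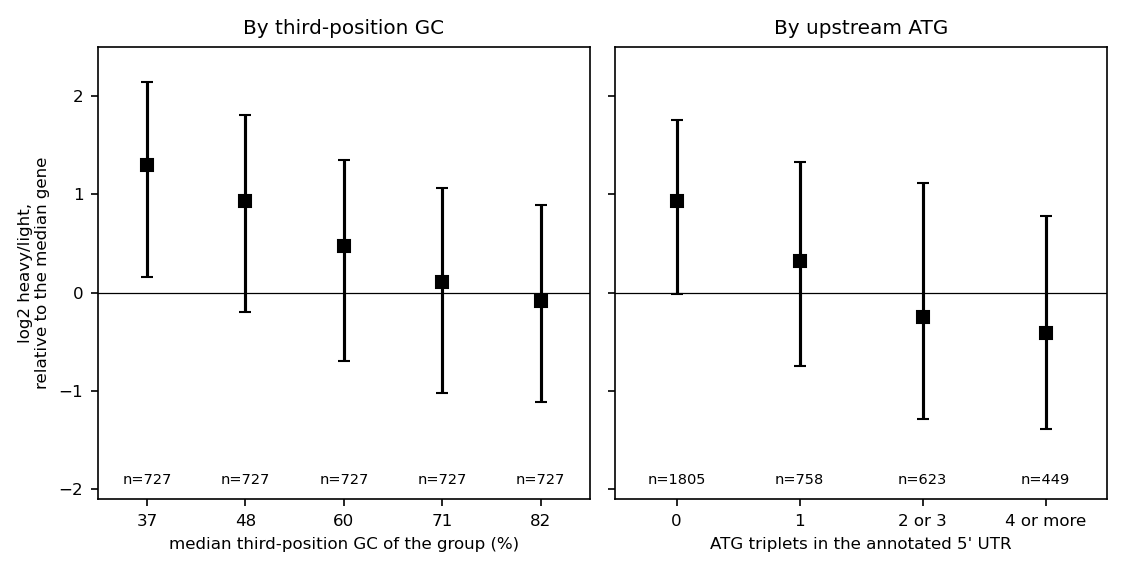
Median and quartiles of the log2 heavy/light ratio relative to the median gene for non-TOP genes with frames of 900 to 2100 nucleotides, split into 5 equal groups by third-position GC (left, x axis gives each group's median) and by the number of ATG triplets in the annotated 5′ UTR (right); n is the number of genes. Medians fall from 1.30 to -0.08 across the GC groups and from 0.94 to -0.41 across the ATG groups, while the quartile ranges overlap throughout.

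The genes called at each end differed in the same features taken over all lengths. Heavy-called non-TOP genes had a median frame of 1392 nucleotides, 11 exons and 49.4% third-position GC, and 38.8% had an upstream ATG. Light-called ones had 817.5 nucleotides, 6 exons and 65.3%, and 60.4% had an upstream ATG. Annotated 5′ UTRs were of similar length at both ends (medians of 178 and 185 nucleotides), and 3′ UTRs were longer at the heavy end (1087 against 806).

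Single-gene values carry limits of counting. Of 441 named genes with an annotated transcript, 65 had a near-identical copy elsewhere (at least 95% identity) and 114 overlapped exons of another gene by at least 200 nucleotides. The sources used here do not say how reads with several alignments or on either strand were counted, so such genes are uncertain. They include HNRNPA2B1 with CBX3, SSB with METTL5, CCT8, HSP90AA1, PGK1 and ATF4 with their pseudogenes, and OAZ1 with JSRP1.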

How the data were processed

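The authors deposited raw counts per gene, whole numbers without scaling, for 4 libraries; minimap2 2.15 and featureCounts from Subread 1.6.2 on hg38 were used, per the submitters' processing notes. The annotation release and the handling of strand and multiple alignments were not given in the sources used here. No column of sample values was left unused. Ratios used a pseudocount of 0.5. Total counts per library (in the report) set the precision through exact counting intervals. Reading frames came from GENCODE release 29 (longest frame per gene, matched for 98.9% of tested genes); like length means the 200 nearest genes by it. With 1 library per pool no replicate test could be fitted; the ratio, interval and call were tested on simulated data. Members and lists were chosen with earlier results of these data known. Named genes are the 20 highest and 20 lowest ratios (at least 100 counts in the pair), per list and for the 6 highest and 6 lowest symbol families (at least 10 tested genes) the 3 most counted and the highest and lowest members, the 15 farthest either way from genes of like length (at least 200 counts) and the 10 most counted per library; the text leaves some out, and a few genes are not reported here. Genes outside the rule are named as markers, overlaps or printed sequences. Alternatives were other minimum counts, pseudocounts, thinning, length measures, call rules and centres, including edgeR 4.0.16 (TMM) and DESeq2 1.42.0 size factors. Python 3.11.15, numpy 2.4.6, pandas 2.3.3, scipy 1.17.1, matplotlib 3.10.9 and R 4.3.3 were used.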

Additional observations from a re-analysis of the deposited data

How the results depend on the processing

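No paired analysis was possible because each pool has 1 library and the labels carry no replicate numbers; for the same reason no replicate could be left out. The 1959 genes called toward the heavy and 2131 toward the light polysomes became 1284 and 1292 with a minimum of 100 counts, 2958 and 1349 on library totals, and 713 and 950 with a 4-fold call. The minimum of 100 counts left 4343 genes in place of 7527, so its calls come from a smaller set. On library totals every ratio is 0.59 higher, and 64 rather than 50 of 85 list medians lay above 0. Totals without TOP genes raised ratios by 0.38, DESeq2 by 0.04 and TMM by 0.06. By summed counts in place of medians the nucleolar ribosome biogenesis list turned to -0.062 from 1.15 and the mitotic list to -0.25 from 1.11; among all 85 lists 22 went from above to below 0 and 1 the other way, such as nuclear transport (0.72 to -0.76), dynein and dynactin (0.54 to -0.91) and G1 cyclins (0.29 to -1.29). Summed counts of all tested non-TOP genes lay at -0.38. With the principal transcript's length, 246 in place of 642 nucleotides, ATP6V0E2 turned to 0.083 from -2.03 against genes of like length. The cause was not tested. The relation with coding length was 0.334 and 0.325 with other length measures. Depth limits genes with few counts in 1 library, such as AASDHPPT with 4 in the light library.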

Other observations

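Further families were seen only after their values were known. The ZDHHC family, enzymes that attach palmitate to proteins, had 11 of 15 tested genes called light and none heavy, with a median of -1.66; against genes of like coding length its median was -2.18. ZDHHC4 had 192 light and 31 heavy counts and lay at -3.26 (-3.88 to -2.73), and ZDHHC9, with 87 and 119, lay at -0.20 (-0.61 to 0.22). Nuclear pore proteins, which form the channel through the nuclear envelope, had 9 of 24 called heavy and none light (median 0.84). Cytosolic aminoacyl-tRNA synthetases, which charge tRNAs, had 15 of 23 called heavy and 1 light (median 1.38).

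Cyclin-dependent kinases lay apart from each other. CDK1, the mitotic kinase, had 6, 26, 24 and 288 counts in the free, monosome, light and heavy libraries and lay at 2.91 (2.33 to 3.60). CDK2, which acts in S phase, had 2, 12, 64 and 332 counts at 1.71 (1.33 to 2.13). CDK4, the G1 kinase, had 17, 239, 1456 and 804 counts at -1.51 (-1.63 to -1.38), while the principal frames are 894, 897 and 912 nucleotides long. The intervals of the 3 kinases do not overlap. CDK4 shares exon sequence with TSPAN31 on the opposite strand, and CDK2 with an antisense gene, so both are less certain.

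Among the most abundant non-TOP mRNAs of the free library, both ferritin chains lay toward the light polysomes. FTH1, the heavy chain of the iron store, had 12416, 6343, 2240 and 1240 counts at -1.50 (-1.61 to -1.40), and FTL, the light chain, had 12074, 2805, 896 and 453 at -1.64 (-1.80 to -1.47). Against genes of like coding length FTH1 lay at -0.60. The ferritin and iron list had a median of 0.04 on that measure, with 4 of 7 above. YBX1, an mRNA-packaging protein, had 13017, 7484, 4956 and 5050 counts at -0.62 (-0.68 to -0.57). All 3 have near-identical pseudogenes.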
